A study of Mus musculus with 4 samples.

Results

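The forkhead transcription factor genes Foxa1, Foxa2, Foxo1, Foxo3, Foxp1, Foxp2, Foxc1, Foxq1, Foxi1 and Foxn3 were followed through a list of open chromatin regions of mouse salivary gland organoids (mSGOs). The 10 genes were taken by name from the RefSeq gene table of GRCm38, and all 10 were found among 21440 protein-coding genes with a known 5′ end. Together they held 82 of the 32011 distinct regions of the list. A region was counted at the 5′ end when its midpoint lay within 1 kb of the gene's outermost annotated 5′ end, in the gene when its midpoint lay between the gene's ends, and as distal when it lay farther than 1 kb from the outermost 5′ ends of all protein-coding genes, the closest of which was that of the gene. Starts inside a gene were not used for this count, so a region at such a start can count as distal.

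Bulk ATAC-seq, in which the Tn5 transposase cuts accessible DNA, was performed on non-irradiated organoids grown from submandibular salivary glands of C57BL/6 mice. The paper describes them as the younger of its 2 culture stages. The labels name 4 samples, 2 of passage 1 and 2 of passage 2. They give the age of the donor mouse as 12 weeks for 1 sample of each passage and 3 months for the other, which are nearly the same age. The methods state that the organoids came from 4 different mice. Only female mice were used, and all organoids grew in Matrigel in WRY medium, which contains Wnt3a- and R-spondin1-conditioned medium, EGF, FGF2, insulin, dexamethasone and the kinase inhibitor Y27632. The deposited data are 1 list, taken to come from all samples together, so no column belongs to a single sample, passages and ages could not be compared, and the spread between samples and the depth of each are unknown. Every region carries an IDR score and, for its strongest summit, a fold over the local background. The IDR score, at most 1000, is a rank-based measure of reproducibility between replicates, and the sources do not state which replicates were compared. The counts below therefore describe 1 list and come without a test. A stretch with no listed region is one that did not enter the list, which at unknown depth does not show that it was closed. Among markers that check the labelled cell type, 5 of 8 epithelial genes had a 5′ end in the list. They were Epcam, Cdh1, Krt5, Krt14 and Krt8, while Krt18, Krt7 and Trp63 had none there. The same held for 1 of 6 immune genes (Cd68) and 0 of 6 each of endothelial and fibroblast genes, beside 38.3% of all protein-coding genes. Distal regions did not separate these lists in the same way, with 6 of 8 epithelial, 2 of 6 immune, 5 of 6 endothelial and 4 of 6 fibroblast genes having at least 1.

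Forkhead proteins share a winged-helix DNA-binding domain that recognises short sequences built around the core GTAAACA. FOXA proteins are pioneer factors that can bind nucleosomal DNA in endoderm-derived and glandular epithelia, FOXO proteins are retained in the cytoplasm when insulin and growth factor signalling through AKT phosphorylates them, and FOXP proteins act mostly as repressors that form dimers. FOXC1 is a developmental regulator used in mesenchymal and epithelial progenitors, FOXQ1 is an epithelial factor of the same chromosomal cluster, FOXI1 specifies ionocytes, and FOXN3 is a repressor with ties to cell cycle control.

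The promoters of the genes differed in CpG content and in their place relative to the list, and 6 of them are shown to set side by side starts that lay inside a region, a start beside one, a CpG-rich start outside any region and a CpG-poor start far from any. Sequences are from RefSeq on GRCm38.p6, 250 bases before to 50 after the annotated start, written 5′ to 3′ on the strand of the gene. Of the 10 genes, 8 had an entry there, with 12 starts in all. Foxp2 and Foxq1 had none. In the first 5 sequences capitals mark each CpG, and in the last they mark a forkhead core. They are the Foxo3 promoter (chr10:42276646-42276945, minus strand), the Foxc1 promoter (chr13:31806396-31806695, plus strand), start 1 of Foxp1 (chr6:99520944-99521243, minus strand), its start 3 (chr6:99028249-99028548, minus strand), the Foxi1 promoter (chr11:34208040-34208339, minus strand) and the Foxa1 promoter (chr12:57546062-57546361, minus strand).
Foxo3: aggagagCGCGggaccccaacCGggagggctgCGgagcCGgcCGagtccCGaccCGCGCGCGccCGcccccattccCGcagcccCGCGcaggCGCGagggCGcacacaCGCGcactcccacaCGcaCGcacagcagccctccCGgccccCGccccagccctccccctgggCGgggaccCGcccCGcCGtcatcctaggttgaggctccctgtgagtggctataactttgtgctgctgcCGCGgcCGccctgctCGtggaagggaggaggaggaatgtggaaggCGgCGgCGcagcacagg
Foxc1: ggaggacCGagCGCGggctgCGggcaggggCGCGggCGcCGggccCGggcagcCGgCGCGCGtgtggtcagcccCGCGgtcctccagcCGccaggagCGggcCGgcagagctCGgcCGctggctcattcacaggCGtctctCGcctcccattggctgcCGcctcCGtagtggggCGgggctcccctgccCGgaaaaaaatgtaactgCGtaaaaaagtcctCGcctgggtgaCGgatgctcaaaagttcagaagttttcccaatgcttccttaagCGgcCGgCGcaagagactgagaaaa
Foxp1, start 1: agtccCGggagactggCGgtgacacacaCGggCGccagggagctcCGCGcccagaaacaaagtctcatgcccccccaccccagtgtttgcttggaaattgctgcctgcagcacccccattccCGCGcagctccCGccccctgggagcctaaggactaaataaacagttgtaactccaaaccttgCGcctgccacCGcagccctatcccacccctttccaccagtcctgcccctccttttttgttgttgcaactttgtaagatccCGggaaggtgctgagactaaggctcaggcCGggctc
Foxp1, start 3: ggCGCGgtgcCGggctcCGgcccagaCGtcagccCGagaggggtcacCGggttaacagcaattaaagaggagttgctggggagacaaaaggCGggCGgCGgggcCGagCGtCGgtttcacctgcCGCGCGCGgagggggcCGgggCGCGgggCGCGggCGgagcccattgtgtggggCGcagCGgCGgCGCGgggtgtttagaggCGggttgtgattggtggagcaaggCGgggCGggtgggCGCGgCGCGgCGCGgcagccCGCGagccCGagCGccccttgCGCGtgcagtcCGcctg
Foxi1: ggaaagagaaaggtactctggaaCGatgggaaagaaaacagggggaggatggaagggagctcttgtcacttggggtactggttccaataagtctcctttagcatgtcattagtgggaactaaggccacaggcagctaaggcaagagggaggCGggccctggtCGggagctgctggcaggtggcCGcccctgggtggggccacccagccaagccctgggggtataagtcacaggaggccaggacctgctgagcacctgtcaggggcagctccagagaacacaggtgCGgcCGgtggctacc
Foxa1: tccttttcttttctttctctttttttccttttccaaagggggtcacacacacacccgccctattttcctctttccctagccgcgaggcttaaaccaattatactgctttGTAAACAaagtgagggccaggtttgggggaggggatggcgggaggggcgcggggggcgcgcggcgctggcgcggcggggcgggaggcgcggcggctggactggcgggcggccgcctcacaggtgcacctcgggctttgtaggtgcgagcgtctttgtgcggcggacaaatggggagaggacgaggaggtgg

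The Foxo3 window held 35 CpG in 300 bases and lay wholly inside a listed region, and 254 bases of the Foxc1 window, with 32 CpG, were covered. The window of Foxp1 start 1 was also covered over all 300 bases, with 13 CpG. In contrast, that of Foxp1 start 3 had the most CpG of the 12, 44, more than 97.1% of protein-coding starts, and yet the nearest region midpoint was 3.22 kb away. Foxi1 held 6 CpG and had no region midpoint within 171 kb. Across the starts of all protein-coding genes in the table, the share with a region within 1 kb was 10.3% below 10 CpG, 55.4% from 10 to 19, 69.7% from 20 to 29, 69.0% from 30 to 39 and 54.9% at 40 or more, and 40.2% overall. Of the 12 forkhead starts, 5 had one, those of Foxo1 (31 CpG), Foxo3, Foxc1 and Foxa1 (26 CpG) and start 1 of Foxp1. The 7 without one were the 3 of Foxa2 (12, 23 and 13 CpG), starts 2 and 3 of Foxp1, that of Foxi1 and that of Foxn3 (6 CpG). The open starts held between 13 and 35 CpG and the others between 5 and 44, and the ranges overlapped.

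**Figure D1:**
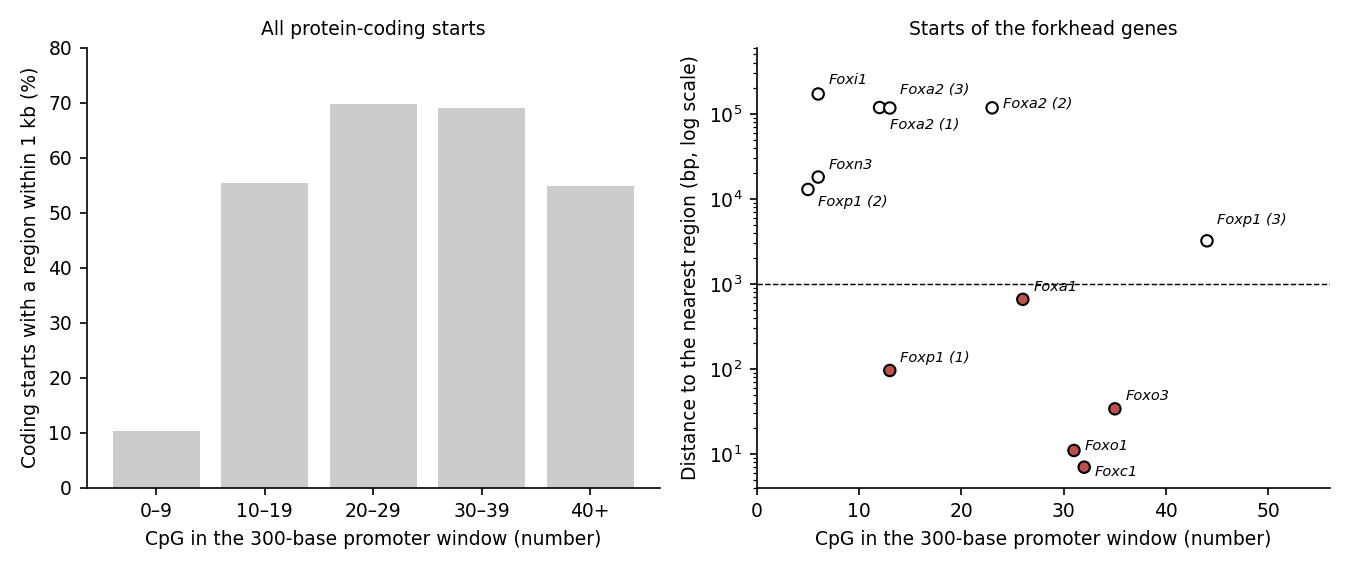
Left, share of all protein-coding starts with an open region midpoint within 1 kb (%), by the number of CpG in the 300-base promoter window. Right, each annotated start of the forkhead genes by its number of CpG and its distance to the nearest region midpoint (bp, log scale), with the number of the start in parentheses where a gene has several, filled where the distance is within 1 kb (dashed line). Filled starts run from 13 to 35 CpG, while Foxp1 start 3, with 44 CpG, lies 3.22 kb from a region.

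A forkhead core, searched as GTAAACA with its reverse complement TGTTTAC, and as the variant GTAAATA with its reverse complement TATTTAC, stood in 1 of the 12 windows, that of Foxa1. It began 141 bases before the start. Such a core was found in 6.54% of all 32851 promoter windows of the table, in 3.86% of protein-coding windows with a region within 1 kb and in 6.56% of those without. The match is a description of letters and no site of binding. Other variants of the core were not searched, so the remaining windows may hold some.

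At the outermost 5′ end, 3 of the 10 genes had a region (Foxo1, Foxo3 and Foxc1), against the 38.3% of all protein-coding genes. With every annotated start of the promoter table allowed, a choice made after the data were seen, Foxp1 and Foxa1 joined them and the count became 5, against 41.8% of genes. In the gene, 5 had at least 1 region (Foxp1, Foxn3, Foxo3, Foxo1 and Foxa1), against 39.5%. Of the 10 genes, 8 had at least 1 distal region, against 40.3%, and 6 had 5 or more (Foxp1, Foxq1, Foxa2, Foxo1, Foxc1 and Foxo3), against 6.39%. The 10 genes were chosen with earlier results of these data known, so their differences from all genes were not tested. Among the other 34 forkhead genes with a known 5′ end, 44.1% had a distal region and 2.94% had 5 or more. Foxp2 and Foxi1 had none of any kind, as did 37.1% of genes.

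The 10 genes had 42 regions within them and 65 distal regions, of which 28 were both. Their median was 5 distal regions, while the median protein-coding gene had 0. These genes also stand in wide stretches: the median sequence nearest to their 5′ ends was 344 kb, against 50.3 kb for all genes. Per 100 kb of such sequence they had 1.73 distal regions, against 0.895 over all genes. The rate was above 0.895 for Foxq1 (3.68), Foxp1 (3.41), Foxo3 (2.17), Foxa2 (1.94), Foxo1 (1.75) and Foxc1 (1.4). It was below 0.895 for Foxn3 (0.406), Foxa1 (0.301), Foxp2 (0) and Foxi1 (0). The assignment by nearest coding 5′ end weighs on the counts and rates of distal regions. With the 5′ ends of noncoding genes and pseudogenes competing as well, 13 of the 65 remained nearest to the outermost end of a forkhead gene. They were 6 of Foxp1, 4 of Foxq1, 2 of Foxo1 and 1 of Foxo3, while Foxc1, Foxa2, Foxa1 and Foxn3 kept 0. With every annotated start of all these genes competing, a choice made after the data were seen, 22 of the 65 stayed with a forkhead gene, 15 of them with Foxp1. The same shares over the distal regions of all protein-coding genes are not given here, so this loss cannot be called particular to the forkhead genes.

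**Figure D2:**
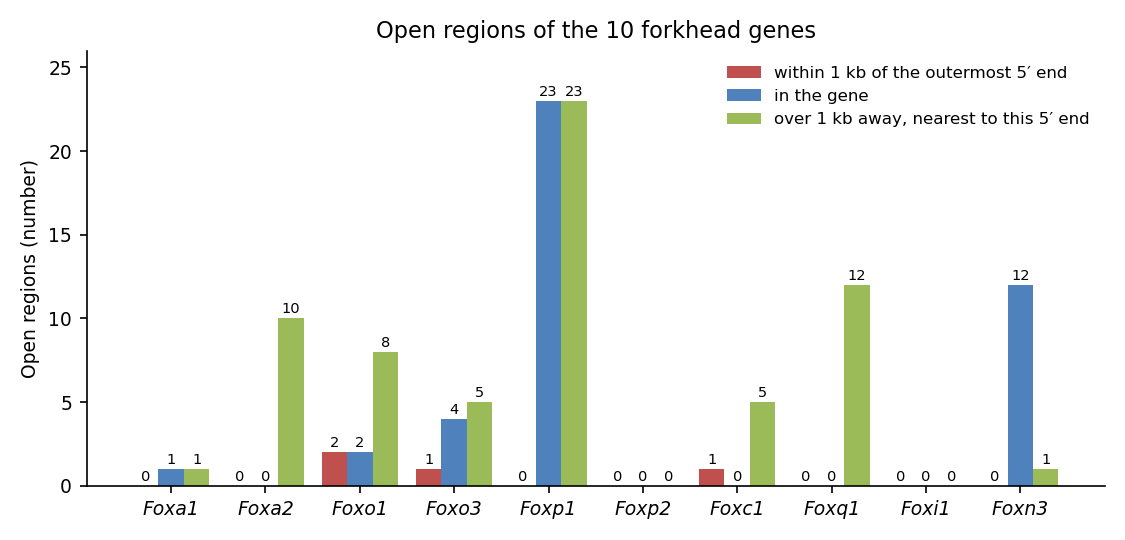
Number of open regions within 1 kb of the outermost 5′ end (red), in the gene (blue) and distal (green). Foxp1 has 23 in the gene and 23 distal, which are the same regions, while Foxp2 and Foxi1 have 0 of each.

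**Figure D3:**
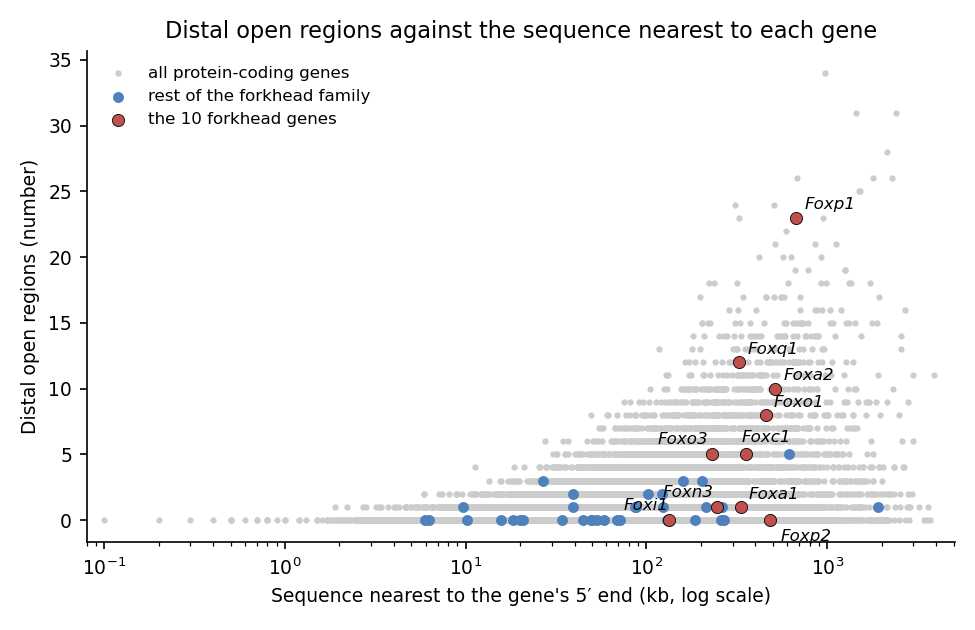
Distal open regions of each gene against the length of sequence nearest to its 5′ end (kb, log scale), for all protein-coding genes (grey), the rest of the forkhead family (blue) and the 10 forkhead genes (red). Foxp1, with 23 regions over 675 kb, and Foxq1, with 12 over 326 kb, lie highest among the red points, and Foxp2 has 0 over 483 kb.

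The pioneer factor genes Foxa1 and Foxa2 are both short, 7.40 and 4.09 kb, and had few or no regions close by. For Foxa1 the region chr12:57546412-57547129 had a fold of 7.87 and an IDR score of 1000. It lay 1.26 kb inside the outermost 5′ end, 659 bp before the annotated start shown above, and its edge was 51 bp from that 300-base window. The same region lay 66 bp from the 5′ end of Ttc6, which runs the opposite way, so the list cannot assign it to either gene. The only distal region of Foxa1, chr12:57776654-57777011, was 229 kb upstream with a fold of 6.05.

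Foxa2 had no region within 118 kb of its outermost 5′ end and none in the gene, yet it had 10 distal regions, more than 98.6% of protein-coding genes. They were spread over 517 kb of sequence nearest to its 5′ end, or 1.94 per 100 kb, 2.16 times the average over all genes. Of the 10 regions, 9 lay past the gene, from 119 to 340 kb in the direction of transcription. The other lay 130 kb upstream, at chr2:148176328-148176690 (fold 7.73). The strongest, chr2:147851191-147851894, stood 195 kb past the 5′ end with a fold of 20.0, the highest of the 82 forkhead regions and rank 108 of all 32011. The next, chr2:147767801-147768353, 279 kb away, had a fold of 14.9, and chr2:147926807-147927262, 120 kb away, one of 11.5. The other 7 ranged from 5.42 to 8.16. In the annotation the strongest region was nearer to the 5′ end of a small nuclear RNA gene, Gm25516, at 23.3 kb, and 6 of the downstream regions were nearest to the noncoding gene A530006G24Rik, at 3.40 to 57.4 kb. All 10 went to noncoding genes when these competed.

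Of the FOXO genes, whose products answer to insulin signalling, Foxo1 and Foxo3 were open at their starts. Elsewhere in the family, Foxo6 had a region at its 5′ end and Foxo4 had none of any kind. At Foxo1, 2 regions lay side by side. The first, chr3:52267624-52268113, was centred 469 bp before the 5′ end with a fold of 5.04, and the second, chr3:52268198-52268455, lay 11 bp before it with a fold of 6.27 and covered 189 bases of the promoter window. Neither reached an IDR score of 1000, and neither was among the 16006 regions with the lowest q-values. Within the 81.8 kb gene, chr3:52343241-52343601 stood near its far end, 75.1 kb from the start, with a fold of 10.4, and chr3:52297620-52297919 at 29.4 kb with a fold of 5.94. Outside it, 2 regions lay 49.3 and 70.2 kb upstream, with folds of 5.56 and 6.99, and a group of 4 lay 270 to 335 kb past the start, the strongest of them chr3:52576565-52577183 with a fold of 12.45.

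Foxo3, of 94.9 kb, had 6 regions, and 5 of them had the maximal IDR score. The region at its start, chr10:42276343-42276980, was centred 34 bp inside the 5′ end and held 4 summits, with a fold of 6.10. A second one, chr10:42277598-42278353, lay 1.28 kb upstream, was 756 bp wide with 5 summits and had a fold of 6.93. Then 3 regions followed along the gene, at 25.3, 45.3 and 68.9 kb, with folds of 8.14, 9.90 and 4.33. The strongest, chr10:42177912-42178635, lay 98.4 kb from the start, just past the gene, with a fold of 12.0. At both Foxo1 and Foxo3 the strongest distal region had a higher fold than the regions at the start, but not every distal region did. It was the highest of 8 distal regions of Foxo1 and of 5 of Foxo3.

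**Figure D4:**
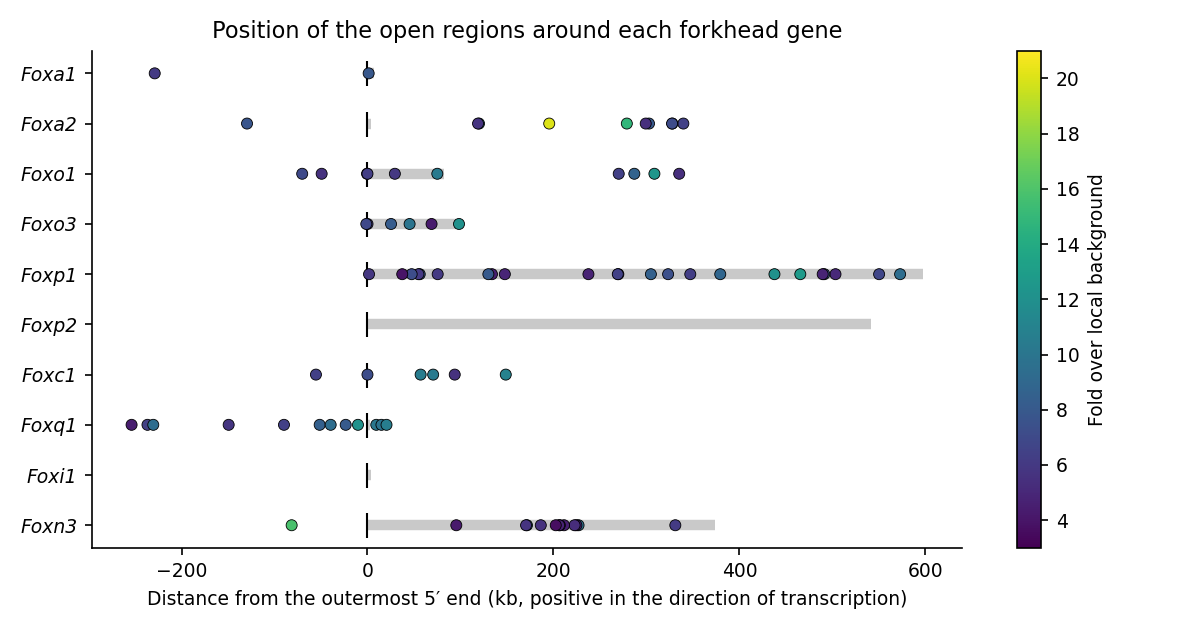
Open regions of each forkhead gene by the distance of their midpoint from the outermost 5′ end (kb, positive in the direction of transcription), coloured by fold over the local background, with the gene as a grey bar and its 5′ end as a tick. The 23 Foxp1 regions lie along the gene, 9 of the 10 Foxa2 regions lie 119 to 340 kb past its 5′ end, and 6 of the 12 Foxq1 regions lie within 50 kb.

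Foxp1, a repressor gene of 597 kb, had the most regions of the 10. All 23 lay inside it, and a count of 23 ranked 3 among all protein-coding genes for regions in the gene and, shared with Fat1, Sox9 and Tiam1, 12 for distal regions. Per 100 kb of sequence nearest to its 5′ end it had 3.41 distal regions, 3.81 times the average over all genes. They were spread from 1.66 to 573 kb from the outermost 5′ end, with gaps between neighbours of 0.60 to 89.9 kb and a median gap of 23.2 kb. The 5 strongest lay in its later part: chr6:99057059-99057581 at 465 kb had a fold of 12.7, chr6:99084700-99085516 at 438 kb one of 12.0, chr6:98949726-98950218 at 573 kb one of 9.37, chr6:99142889-99143908 at 379 kb one of 8.84 and chr6:99217842-99218120 at 305 kb one of 8.50. The region chr6:99520891-99521287, centred 96 bp from start 1 of Foxp1, had 3 summits, a fold of 5.84 and an IDR score of 558, and it is 1 of the 23 that count as distal, since the outermost end lay 1.66 kb away. Start 2, 256 kb along the gene, had its nearest region 12.9 kb away, and the CpG-rich start 3, 494 kb along, had regions at 3.22 and 4.95 kb on its upstream side (chr6:99031293-99031738, fold 7.82, and chr6:99033135-99033354, fold 4.80).

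The folds of the Foxp1 regions were not high as a group. They ran from 3.95 to 12.7 with a median of 6.48, against 7.11 for all regions, 10 of 23 lay above that value, and 8 had an IDR score of 1000. Among the 16006 regions with the lowest q-values, 8 of the 23 were left. Of the 23 regions, 17 were nearer to the 5′ end of 1 of 3 noncoding genes inside Foxp1 than to the outermost end of Foxp1, but 9 of these 17 were nearer still to an annotated Foxp1 start, which left 8. The protein-coding genes with the most similar counts at the 5′ end, in the gene and distal were Tiam1 (0, 20 and 23), Pde4d (0, 24 and 18) and Rbms3 (0, 17 and 16), at distances of 3.00, 5.10 and 9.22 over the 3 counts.

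Its paralog Foxp2, of 541 kb and with 483 kb of sequence nearest to its 5′ end, had no region of any kind. The closest listed region was 397 kb from its 5′ end and belonged to the neighbour Ppp1r3a. Hence these long paralogs differed by 23 listed regions to 0.

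Foxc1 and Foxq1 stand on chromosome 13 on either side of Foxf2, with 67.6 kb between the 5′ ends of Foxq1 and Foxf2 and 181 kb between those of Foxf2 and Foxc1. The 3 genes had 19 regions: 12 of Foxq1, 1 of Foxf2 and 6 of Foxc1. The whole interval between the 5′ ends of the neighbours Exoc2 and Gmds, 1360 kb, held 27. Between Foxq1 and Foxf2 there were 3 regions, or 4.43 per 100 kb, against 1.66 between Foxf2 and Foxc1, and 1.88 both between Exoc2 and Foxq1 and between Foxc1 and Gmds.

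Foxq1, of 2.81 kb, had no region at its 5′ end or in the gene, and its 12 distal regions came to 3.68 per 100 kb, 4.11 times the average over all genes. Of these, 5 lay within 25 kb. Upstream, chr13:31547556-31548297 at 10.2 kb had the highest fold, 12.15, and chr13:31534499-31535001 at 23.4 kb had one of 8.01. Downstream, chr13:31567260-31567993 at 9.46 kb, chr13:31572897-31573477 at 15.0 kb and chr13:31578448-31578794 at 20.5 kb had folds of 10.1, 9.88 and 10.6. All 5 had the maximal IDR score. Farther upstream, chr13:31518274-31518865 at 39.6 kb had a fold of 9.35 and chr13:31506367-31507140 at 51.4 kb one of 8.44. The remaining 5 were chr13:31468140-31468593 at 89.8 kb (fold 6.38), chr13:31408698-31409066 at 149 kb (5.81), chr13:31327528-31328094 at 230 kb (9.37), chr13:31321311-31321853 at 237 kb (6.43) and chr13:31304260-31304693 at 254 kb (4.47). The Foxq1 regions were also wide, with a median of 555 bp against 402 bp over the list, and 11 of 12 had several summits, against 70.1%. With noncoding 5′ ends competing, 4 of the 12 stayed with Foxq1.

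Foxc1 had its region at the start, chr13:31806442-31806837, centred 7 bp before the 5′ end with a fold of 7.19 and an IDR score of 677. Its 5 distal regions were chr13:31750919-31751507, 55.4 kb upstream with a fold of 6.38, and chr13:31863427-31864154, chr13:31877029-31877497, chr13:31900282-31900643 and chr13:31955138-31955544, at 57.1, 70.6, 93.8 and 149 kb past the start with folds of 10.5, 10.4, 5.56 and 11.0. The 3 strongest had the maximal IDR score, and all 3 exceeded the fold at the start. Foxf2 had 1 region, chr13:31704254-31704593, 78.6 kb past its 5′ end, with a fold of 4.91.

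Foxi1, the ionocyte factor gene of 3.75 kb, had no region at the 5′ end, in the gene or distal. The nearest one was 172 kb away, beside Lcp2, and 134 kb of sequence lay nearest to its 5′ end. Foxn3, of 374 kb, held 12 regions, rank 52 for regions in the gene, and the start in the promoter table, 114 kb inside it, had its nearest region 18.1 kb away. However, 0 of the 12 counted as distal regions of Foxn3. Among outermost coding 5′ ends, that of Gm51999, a predicted gene inside Foxn3, was the nearest to all 12, although chr12:99468009-99468312 lay 18.1 kb from the annotated Foxn3 start and 76.0 kb from Gm51999. At the end of Gm51999 lay 2 of them: chr12:99391925-99392432, 12 bp from it with a fold of 11.15, and chr12:99392926-99393336, 965 bp from it with a fold of 5.70. A further 7 lay between 202 and 227 kb from the Foxn3 5′ end, among them chr12:99336355-99337064 with a fold of 9.69. When predicted gene models were left out of the competition, an alternative chosen after the data were seen, Foxn3 had 12 distal regions instead of 1 and Foxp1 27 instead of 23. The 1 distal region of Foxn3, chr12:99645096-99645346, lay 81.6 kb upstream with a fold of 15.9, the second highest of the 82.

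**Figure D5:**
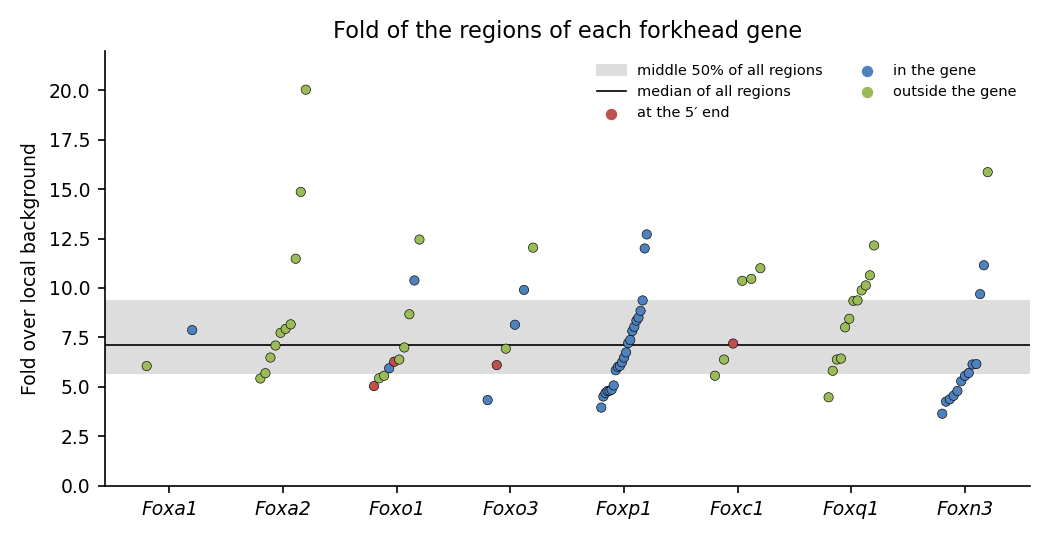
Fold over the local background of each region of the forkhead genes that have any, at the 5′ end (red), otherwise in the gene (blue) or outside it (green). The grey band is the middle 50% of all regions (5.70 to 9.32) and the line their median (7.11). The highest points are distal regions of Foxa2 (20.0) and Foxn3 (15.9), and the 4 regions at 5′ ends lie between 5.04 and 7.19.

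As a group, the 82 regions resembled the list in strength. Their median fold was 6.84 (middle 50%, 5.59 to 9.36) against 7.11 (5.70 to 9.32), 47.6% had an IDR score of 1000 against 45.1%, and the median width was 417 bp against 402 bp. The 4 regions at the 5′ ends of Foxo1, Foxo3 and Foxc1 had a median fold of 6.18, while all regions at protein-coding 5′ ends had one of 7.90. The 65 distal regions had a median of 7.37, against 6.87 for all regions over 1 kb from a 5′ end. By gene, the medians ran from 5.55 for Foxn3 and 6.32 for Foxo1 to 8.77 for Foxc1 and 8.90 for Foxq1.

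The rest of the forkhead family, 34 genes with a known 5′ end, had a distal region about as often as all genes, with 15 of 34 (44.1%, against 40.3%), and fewer of them per length, 28 in all or 0.521 per 100 kb against 0.895. A region at the 5′ end was present at 8 of them (23.5%, against 38.3%): Foxa3, Foxc2, Foxd2, Foxh1, Foxj2, Foxn2, Foxo6 and Foxp4. The one at Foxn2, chr17:88440328-88440979, had a fold of 9.21, and that at Foxa3, chr7:19024109-19024471, one of 9.45, but the latter also fell at the 5′ end of Sympk. Likewise the region at Foxh1 was shared with Ppp1r16a. Folds at the other 5 ranged from 5.42 at Foxc2 to 6.86 at Foxd2. Only Foxk1 had 5 distal regions, followed by Foxd1, Foxj2 and Foxn2 with 3 each and by Foxn1, Foxo6 and Foxp4 with 2 each. None of these 34 genes reached 10, as Foxp1, Foxq1 and Foxa2 did. The median of sequence nearest to their 5′ ends was 63.7 kb against 344 kb for the 10 genes, which were chosen with these data known.

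Genes around the FOXO factors were read from lists of regulators and targets. Of 17 regulators, which carry the insulin signal or modify FOXO proteins, 11 had a region at the outermost 5′ end, 14 had one in the gene (82.4%, against 39.5% of all genes) and 13 had a distal one (76.5%, against 40.3%). The most distal regions were found for Irs2, an insulin receptor adaptor (15), Pik3r1, the regulatory subunit of PI3-kinase (12), and Sgk1, a kinase that phosphorylates FOXO3 (11). Igf1r, the IGF1 receptor, had 15 regions in the gene, while Akt1 had none of any kind. Of 17 targets, 12 had a region at the 5′ end, 10 one in the gene (58.8%) and 14 a distal one (82.4%). Cited2, a transcriptional coregulator, had 25 distal regions, rank 8 of all protein-coding genes, Bcl2l11, which encodes the pro-apoptotic protein BIM, had 11, and Sesn3, a stress-induced inhibitor of mTORC1, had 10. The muscle ligase gene Trim63 and the liver gene Igfbp1 had none of any kind. At the outermost 5′ end this came to 64.7% of regulators and 70.6% of targets, beside the 38.3% of all genes. With any annotated start allowed, a choice made after the data were seen, it came to 88.2% and 82.4%, beside 41.8%. Per 100 kb the lists had 2.03 and 2.34 distal regions, beside 0.895. Both lists were chosen with earlier results of these data known, so their differences from all genes were not tested.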

How the data were processed

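ATAC-seq libraries of 4 organoid samples were sequenced on an Illumina NextSeq 500, and the authors ran the ENCODE ATAC-seq pipeline for alignment and peak calling. They deposited 1 list of 69545 summits, each with an IDR score, a fold (ratio) over local background and a q-value as −log10. Its column of p-values was not used. Versions and filters are not given in the sources used here. The labels name the build GRCm39 without its role. The list was read as GRCm38, since 38.3% of protein-coding 5′ ends lay within 1 kb of a region there, against 5.04% in GRCm39. The list was taken as the consensus of all samples that the methods describe, but neither its distinct regions, which are fewer, nor its lines, which are more, match the number of consensus peaks given there, and no column tells which samples made it. Depth per sample is unknown.

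Lines with equal coordinates were joined into 32011 regions with the values of the strongest summit. Genes came from RefSeq GRCm38.p6, and strand from its promoter table (17492 coding genes) or, by name, from GENCODE (3948). Another 447 had none and were left out. Python 3.11.15, numpy 2.4.6 and pandas 2.3.3 were used, and counting was tested on simulated regions. Proteins and sequences of regions were not analysed here.

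The members and lists were chosen with earlier results of these data known. Named were all members, their strongest regions, all regions of the chromosome 13 cluster, family genes with a region at the 5′ end or the most distal regions, the 3 FOXO regulators and targets with the most distal regions, and the 3 genes most like Foxp1. Other names were chosen after their values were seen.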

Additional observations from a re-analysis of the deposited data

How the results depend on the processing

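No paired analysis was possible because no column of the list belongs to a single sample, and for the same reason no sample could be left out. Of 24 alternative values, 10 stayed within 1.5 times the reported count. The 3 forkhead genes with a region at the 5′ end became 5 within 2 kb or with any annotated start and 1 with an IDR score of 1000, where Foxo3 was left. The 42 regions within the genes became 17 with the 16006 lowest q-values, 17 with an IDR score of 1000 and 84 when every summit was counted. The 65 distal regions became 35 with the 16006 lowest q-values, 33 with an IDR score of 1000, 28 within 100 kb, 13 with 5′ ends of every gene type and 25 with every annotated start of every gene type, of which 22 are among the 65. The 8 other family genes with a region at the 5′ end became 4 with the 16006 lowest q-values. For the build, the share of 5′ ends near a region, 38.3%, fell to 3.77% with ends shifted by 50 kb and to 5.04% in GRCm39. Alternatives with any or every annotated start and without predicted models were added after the data were seen. Protein comparisons were not run. Depth of the samples, and so the power to list a region, is unknown.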

Other observations

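Other transcription factor families were counted the same way and are given as values, beside 38.3% of all protein-coding genes with a region at the 5′ end, 40.3% with a distal one and 0.895 distal regions per 100 kb. Of 17 KLF genes, 12 (70.6%) had an open region at the 5′ end and 14 (82.4%) a distal one, with Klf6 highest at 34 distal regions. Of 19 SOX genes, 5 (26.3%) had one at the 5′ end and 10 (52.6%) a distal one, with Sox9 highest at 23. At the outermost 5′ end a region was present for 0 of 6 GATA genes and 0 of 3 RUNX genes, while 3 and 2 of them had distal regions. With any annotated start allowed, 0 of the GATA genes and 1 of the RUNX genes had a region at a start. Of 4 TEAD genes, 2 had one at the 5′ end and 3 a distal one. Per 100 kb of sequence nearest to their 5′ ends, distal regions numbered 2.12 for KLF, 1.06 for SOX, 0.962 for GATA, 2.45 for RUNX and 3.24 for TEAD genes, beside 1.02 for the whole forkhead family.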
